A study of Arabidopsis thaliana with 54 samples.

Results

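AT1G60590, AT2G43870 and AT1G23205 are 3 Arabidopsis thaliana genes of protein families tied to pectin. They were followed in hypocotyls and cotyledons of seedlings under ethylene or shade. They are 3 of the 16746 features of the array that are paired with exactly 1 gene. Each was found by its locus tag, has exactly 1 such feature and overlaps no other gene in the RefSeq table (TAIR10.1 assembly). Seedlings of accession Col-0 gave RNA for 54 arrays (Affymetrix Gene 1.1 ST) in 18 groups of 3, which are 2 tissues, 3 treatments and 3 times. Seedlings grew in days of 9 h light and 15 h dark, spent 24 h in control light, and were then moved into airtight glass desiccators. The ethylene groups received 1 µl per litre of the gas in control light. Shade groups stood under reduced light with a photosynthetically active radiation of 40, a blue light of 3 (both in µmol per square metre and second) and a red to far-red ratio of 0.45. Control groups stood in the same vessels at 140, 29 and 2.1, and the ethylene groups shared that light. Harvests of hypocotyls, and of cotyledons with the shoot apical meristem attached, came at 1.5, 13.5 and 25.5 h of treatment, and roots were discarded. The harvest at 13.5 h fell in the dark period, and that at 25.5 h came 24 h after the first. Replicates came from 3 independent experiments, each made from 2 pooled technical replicates with 25 seedlings apiece. No mutant or transgene is involved.

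Pectin is the gel-forming polysaccharide of the primary cell wall and of the layer that glues cells together. Its main chain of galacturonic acid is laid down with methyl groups, which pectin methylesterases take off. The bare chain can then be stiffened by calcium or cut by polygalacturonases and pectate lyases, so these enzymes are tied to wall loosening, wall stiffening and cell separation. Small inhibitor proteins of the invertase and pectin methylesterase inhibitor family bind and block the methylesterases or the invertases. AT1G60590 and AT2G43870 belong to the pectin lyase-like family in which the polygalacturonases are found, and AT1G23205 to the inhibitor family. Family membership does not establish what each protein does. In low red to far-red light hypocotyls of seedlings are known to elongate, and ethylene acts on hypocotyl growth in a way that depends on light.

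The values are log2 levels, so a difference of 1 is a doubling, and ± stands for the SD of 3 arrays beside a level and for the standard error beside a difference. Levels are compared between samples of a gene, not between genes. Differences were tested with limma over 17504 features that carry a gene, with Benjamini-Hochberg adjustment, and a difference is called at an adjusted p below 0.05. RNA per organ sample was measured, so fewer cells of a type and less RNA per cell cannot be told apart. All 4 listed genes tied to the stomatal lineage (SPCH, MUTE, FMA and STOMAGEN) have a feature. Their mean level was 3.45 to 5.11 in hypocotyl arrays and 6.61 to 7.56 in cotyledon arrays. The meristem marker CLV3 stayed low, between 1.47 and 2.39 in hypocotyl arrays and between 1.798 and 2.64 in cotyledon arrays, and 0 of 6 mesophyll markers have a named feature. In all, 8 arrays stood apart by 3 jacalin-type lectin genes that serve as root markers, with mean levels of 3.18 to 7.78 against 1.45 to 2.49 on the others. In hypocotyls these are replicates 1 and 3 of the controls at 1.5 and 13.5 h, replicate 3 of ethylene at 1.5 h and replicate 1 of ethylene at 13.5 h. In cotyledons they are replicate 3 of shade at 13.5 h and replicate 3 of the controls at 25.5 h. The root hair gene EXPA7 ranged between 2.797 and 7.51 in hypocotyl arrays and between 2.93 and 3.65 in cotyledon arrays. Hypocotyl arrays had 4.79 to 7.51 at 1.5 h, against 2.797 to 4.83 later. Control replicate 2 at 1.5 h, not high in lectins, had 6.91. For EXPA7 control hypocotyl minus cotyledon was 3.33 at 1.5 h (adjusted p = 3.98e-09), 0.63 at 13.5 h and -0.21 at 25.5 h. What this shift contributes to comparisons with hypocotyls at 1.5 h was not tested. What the arrays high in lectins contribute to a result was not tested beyond leaving them out, which leaves 1 control array in hypocotyls at 1.5 h and 1 at 13.5 h.

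The 3 genes were picked with results of these data in view, so the comparisons that drew attention to them are described here without a test. For AT1G60590 these are ethylene against control in hypocotyls at 1.5 h, where it had the largest fall of all called single-gene features, and at 25.5 h, where its fall ranked 2. The organ difference in the ethylene response at 25.5 h, with rank 2 among the falls, is treated likewise. For AT2G43870 it is the organ difference in the ethylene response at 1.5 h, with rank 2 among the rises. AT1G23205 never stood among the first 3, so its best placed treatment comparison, ethylene in cotyledons at 1.5 h with rank 4 among the falls, was set aside. Comparisons that reuse the treated arrays of a set-aside comparison are described only as well, which leaves 100 tested differences and 23 described ones. Ethylene and shade comparisons within an organ and time share their control arrays. Comparisons that reuse only the control arrays of a set-aside comparison were still tested, so their p-values are not free of the choice. Among them are comparisons of shade with control, of the control organs and of controls over time. Which values first led to the choice is not fully recorded, so a tested difference that runs the same way as a set-aside one is no independent support.

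AT1G60590 was high in the light and low at night in most series, and lower than control under ethylene in both organs and under shade in hypocotyls. Its 18 group means spanned 6.99 log2 units, a 127-fold range, and fell into tiers that did not overlap. The lowest tier held ethylene-treated hypocotyls at 13.5, 25.5 and 1.5 h and shaded hypocotyls at 13.5 h, with means of 2.93 to 4.13. Next came the cotyledons of all 3 treatments at 13.5 h together with control hypocotyls at 13.5 h and shaded hypocotyls at 1.5 h. Above these stood control hypocotyls at 1.5 h, then a tier of shaded hypocotyls at 25.5 h and ethylene-treated cotyledons at 1.5 h, then ethylene-treated cotyledons at 25.5 h, then shaded cotyledons at 1.5 h. The top tier held shaded cotyledons at 25.5 h and the controls of cotyledons at 1.5 h and of both organs at 25.5 h, the highest at 9.92 ± 0.05. Of the 17 pairs of neighbours in this order 11 overlapped and 6 did not.

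**Figure D1:**
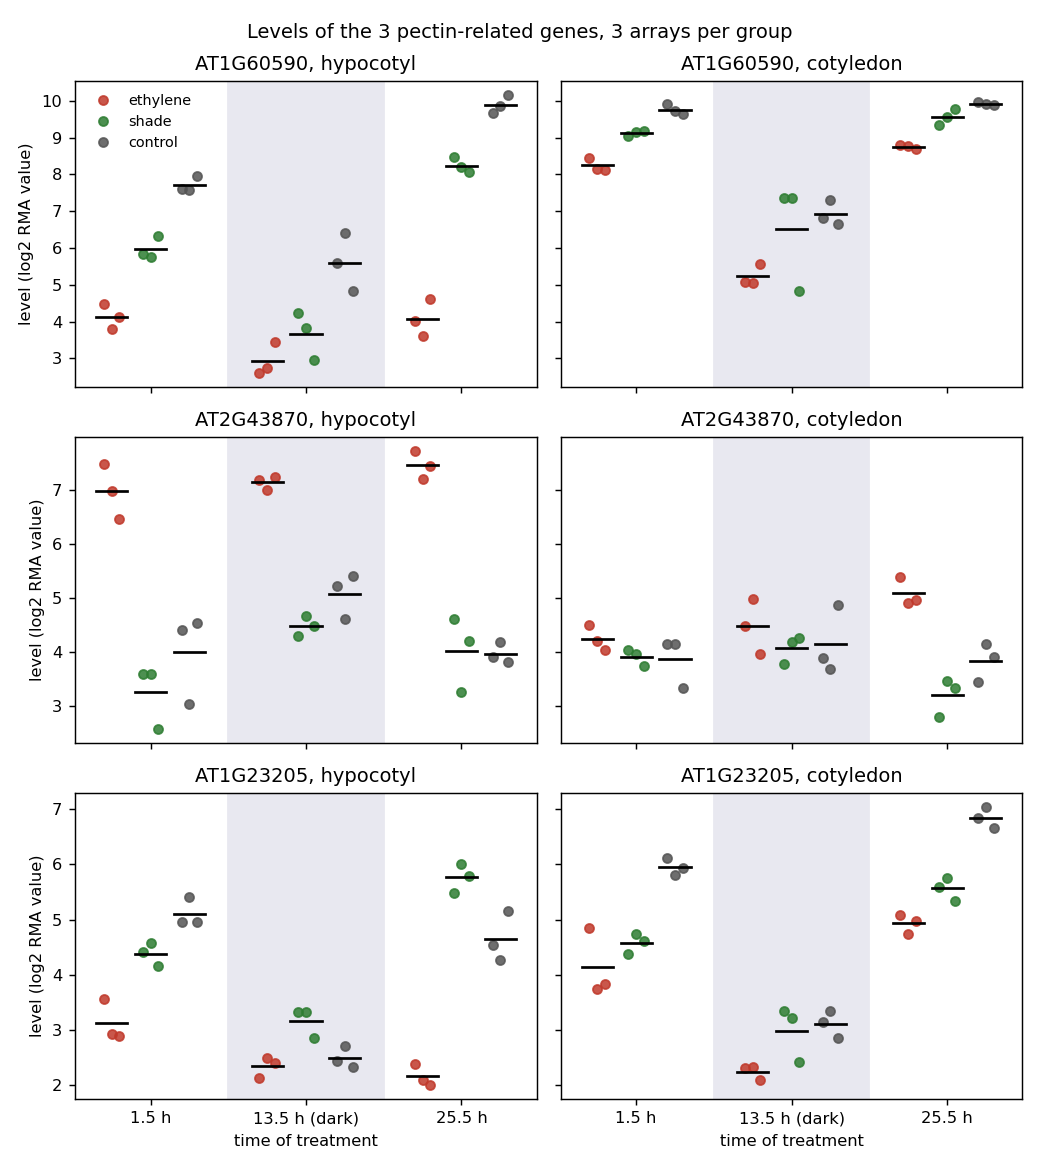
Levels of the 3 genes on the log2 scale (vertical axes) at each time of treatment (horizontal axes), by organ, with 1 point per array, a bar for the mean of 3 arrays, and ethylene, shade and control from left to right at each time. The shaded band marks the dark harvest at 13.5 h. AT1G60590 and AT1G23205 drop there in most series, while AT2G43870 stands at 6.47 or more in ethylene-treated hypocotyls at all 3 times and between 2.57 and 5.396 on the other arrays.

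In hypocotyls under ethylene AT1G60590 stood far below control at every harvest. At 1.5 h it had levels of 4.47, 3.79 and 4.11 with ethylene, against 7.603, 7.57 and 7.97 in control, a difference of -3.59 ± 0.38. The groups lie far apart, and this value is one that chose the gene, in a comparison where 1.65% of all tested features were called lower. At 13.5 h the levels were 2.61, 2.74 and 3.45 with ethylene and 5.58, 6.41 and 4.82 in control, without overlap. This difference of -2.67 ± 0.38 was called (adjusted p = 1.38e-06), where 6.04% of features were called lower. It was -3.31 (called) without the arrays high in lectins. At 25.5 h ethylene-treated hypocotyls had 4.02, 3.61 and 4.61 and controls 9.68, 9.85 and 10.16, a difference of -5.82 ± 0.38, or 56.5-fold. Every ethylene array was thus lower than every control array, again in a comparison used to choose the gene, with 11.1% of features called lower.

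Shade lowered AT1G60590 in hypocotyls at all 3 times. Shaded hypocotyls had 5.83, 5.75 and 6.33 at 1.5 h, against the control levels given above, a difference of -1.74 ± 0.38 (adjusted p = 0.0018). At 13.5 h they had 4.24, 3.83 and 2.96, a difference of -1.93 ± 0.38 (adjusted p = 0.000377), and at 25.5 h 8.47, 8.19 and 8.06, a difference of -1.66 ± 0.38 (adjusted p = 0.00131). No shaded array reached the lowest control array of its time. Of all features, 10.5%, 4.7% and 7.48% were called lower at 1.5, 13.5 and 25.5 h. The call at 13.5 h was lost when the fit held the 6 compared arrays alone (adjusted p of 2.72e-06 to 0.0875 over all alternatives), and the difference there was -2.74 (called) without the arrays high in lectins. At 1.5 h the split of calls over all features depends on the scaling, with 343 higher and 1836 lower as deposited, 1641 and 588 after centring each array on its median, and 667 and 792 after quantile normalization within the tissue. The median difference over all features was -0.12 as deposited, 0.13 after centring and 0.01 after quantile normalization. AT1G60590 was at -1.49 (called) after centring and at -1.59 (called) after quantile normalization, which is far below each of these medians. The response at 25.5 h minus that at 1.5 h was 0.08 ± 0.54 (adjusted p = 0.95), in a comparison added after the data were seen.

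In cotyledons AT1G60590 was lower with ethylene at the 3 times, and no shade difference was called. Ethylene-treated cotyledons had 8.45, 8.16 and 8.12 at 1.5 h, against 9.91, 9.72 and 9.66 in control, a difference of -1.51 ± 0.38 (adjusted p = 0.0328). The groups do not overlap, but the call was lost on leaving out any of the 6 arrays, with adjusted p between 0.0681 and 0.151. At 13.5 h the levels were 5.07, 5.06 and 5.58 with ethylene and 6.81, 7.31 and 6.66 in control, a difference of -1.69 ± 0.38 (adjusted p = 0.00833). This call was lost without ethylene replicate 1, ethylene replicate 2 or control replicate 2 (adjusted p of 5.43e-05 to 0.0938 over all alternatives). The shares of features called lower were 0.474% and 0.663%. At 25.5 h, a comparison with arrays that chose the gene, it had 8.802, 8.77 and 8.69 with ethylene and 9.98, 9.91 and 9.88 in control, a difference of -1.17 ± 0.38 (share called lower, 2.36%). Again each ethylene array lay below each control array.

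For AT1G60590 shaded cotyledons had 9.05, 9.15 and 9.18 at 1.5 h and 9.35, 9.55 and 9.78 at 25.5 h, all below their controls. The differences of -0.63 ± 0.38 and -0.36 ± 0.38 were not called (adjusted p = 0.705 and 0.673). At 13.5 h replicates 1 to 3 had 7.36, 7.36 and 4.83, so the first 2 stood above the control values and the third far below them. Replicate 3 is one of the arrays high in lectins, and the SD of this group, 1.46, was the largest of all groups. The difference of -0.41 ± 0.38 was not called (adjusted p = 0.678) and was 0.43 (not called) without the arrays high in lectins. For shade in cotyledons 0.32%, 2.5% and 3.9% of features were called lower at 1.5, 13.5 and 25.5 h.

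The organs also differed without treatment. Control hypocotyls had less AT1G60590 than control cotyledons, with differences of -2.05 ± 0.38 at 1.5 h (adjusted p = 2.15e-05) and -1.32 ± 0.38 at 13.5 h (adjusted p = 0.00612). By 25.5 h the means were 9.8999 ± 0.24 in hypocotyls and 9.92 ± 0.05 in cotyledons, with overlapping arrays and a difference of -0.02 ± 0.38 (adjusted p = 0.974). Between the control organs 42.6%, 30.5% and 30.5% of all features were called at the 3 times. The difference at 13.5 h was no longer called without the arrays high in lectins, at -0.52, or without control hypocotyl replicate 3, at -0.93. The response to ethylene in hypocotyls minus that in cotyledons was -2.07 ± 0.54 at 1.5 h and -4.65 ± 0.54 at 25.5 h, both described only, and -0.98 ± 0.54 at 13.5 h (adjusted p = 0.472). That last value was -1.63 (called) without the arrays high in lectins. For shade the organ differences were -1.11 ± 0.54, -1.52 ± 0.54 and -1.29 ± 0.54 at 1.5, 13.5 and 25.5 h, and none was called (adjusted p = 0.311, 0.105 and 0.177). For the organ difference in the response, 0.137%, 3.12% and 14.8% of all features were called with ethylene and 2.16%, 3.91% and 5.63% with shade. The value for shade at 13.5 h was called without the arrays high in lectins, at -3.17, and without replicate 3 of shaded cotyledons, at -2.37.

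Under shade AT1G60590 stayed above its ethylene level in most comparisons. In hypocotyls shade minus ethylene was 1.84 ± 0.38 at 1.5 h and 4.16 ± 0.38 at 25.5 h, both described only, and 0.74 ± 0.38 at 13.5 h (adjusted p = 0.226). In cotyledons it was 1.28 ± 0.38 at 13.5 h, called (adjusted p = 0.0397) although the arrays overlap, and 0.88 ± 0.38 at 1.5 h (adjusted p = 0.329). The call at 13.5 h was lost with the compared arrays alone, after centring, over all features of the array and without ethylene or shade replicate 1 or 2 (adjusted p of 2.63e-06 to 0.44 over all alternatives). At 25.5 h it was 0.802 ± 0.38, described only. Of all features 16.8%, 14.7% and 20% were called between shade and ethylene in hypocotyls at 1.5, 13.5 and 25.5 h, and 2.21%, 4.8% and 12.4% in cotyledons.

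AT1G60590 fell at night in both organs. In control cotyledons the difference was -2.83 ± 0.38 at 13.5 h against 1.5 h (adjusted p = 2e-07), and in control hypocotyls -2.11 ± 0.38 (adjusted p = 2.83e-05). Without the arrays high in lectins the hypocotyl value was -1.16 (not called). From the night to the following day, 25.5 h minus 13.5 h, the level rose by 4.57 ± 0.38 in shaded hypocotyls (adjusted p = 1.18e-12) and by 4.295 ± 0.38 in control hypocotyls (adjusted p = 5.03e-12). The same difference was 1.15 ± 0.38 in ethylene-treated hypocotyls, described only. In cotyledons it was 3.52 ± 0.38 with ethylene, described only, 3.04 ± 0.38 with shade (adjusted p = 3.26e-08) and 2.997 ± 0.38 in control (adjusted p = 3.06e-08). The comparison of the following day with the night was added after the data were seen, and many features passed it. They were 19.9% with ethylene, 18.9% with shade and 22.2% in control hypocotyls, and 23.6%, 23.5% and 27.5% in cotyledons. At the same hour of the day, 25.5 h against 1.5 h, control hypocotyls had risen by 2.19 ± 0.38 (adjusted p = 1.62e-05), while control cotyledons differed by 0.16 ± 0.38 (adjusted p = 0.843). The hypocotyl controls at 1.5 and 25.5 h and the cotyledon controls at 25.5 h took part in the choice of this gene, so tests that hold them are not independent of it. Over time in controls 31.2% and 31.9% of features were called in hypocotyls at 13.5 and 25.5 h, and 18.4% and 17% in cotyledons.

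**Figure D2:**
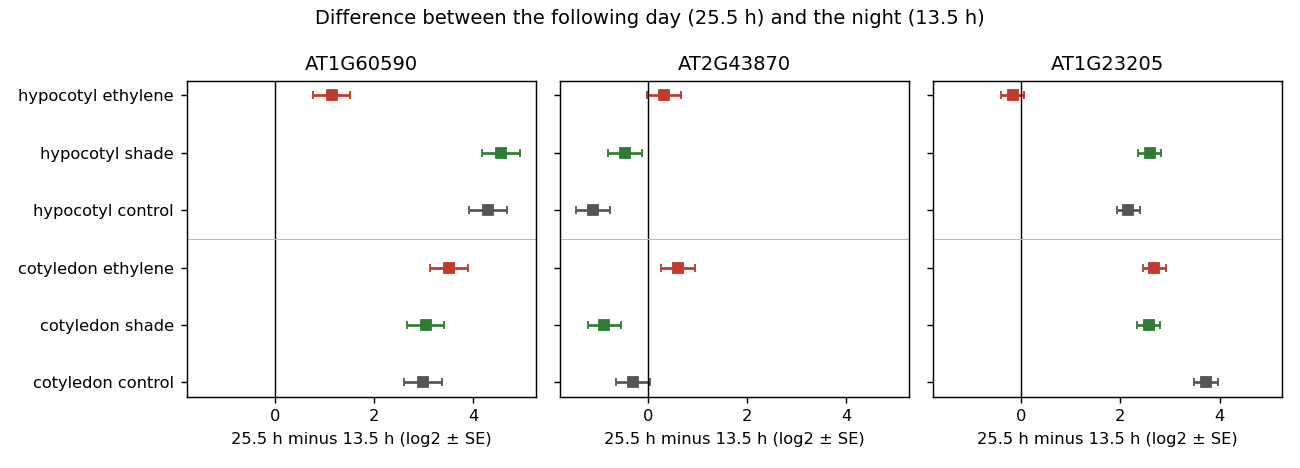
Difference between the following day and the night (25.5 h minus 13.5 h) on the log2 scale, with its standard error, for each organ and treatment. Values right of 0 are higher by day. AT1G60590 and AT1G23205 lie between 2.16 and 4.57 in every series except ethylene-treated hypocotyls, where they are at 1.15 and -0.18, and AT2G43870 stays within -1.11 and 0.61.

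AT2G43870, from the same enzyme family, was higher with ethylene in hypocotyls at every harvest and in cotyledons at 25.5 h, and no shade difference was called. Its 18 group means spanned 4.27 log2 units, a 19.3-fold range. The 3 groups of ethylene-treated hypocotyls stood alone at the top, with means of 6.98 ± 0.51, 7.14 ± 0.13 and 7.46 ± 0.26 at 1.5, 13.5 and 25.5 h. The other 15 groups followed between 3.19 ± 0.35 in shaded cotyledons at 25.5 h and 5.08 ± 0.27 in ethylene-treated cotyledons at 25.5 h. Of the 17 pairs of neighbours in the order 16 overlapped, and the only gap lay below those 3 groups.

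In hypocotyls at 1.5 h AT2G43870 had 7.49, 6.97 and 6.47 with ethylene, against 4.41, 3.03 and 4.53 in control. The groups lie apart, and the difference of 2.98 ± 0.34 belongs to arrays that chose the gene (1.38% of features called higher). Control replicates 1 and 3, both high in lectins, stood above replicate 2, and the difference was 4.198 without the arrays high in lectins and 2.505 without control replicate 2. At 13.5 h it had 7.19, 7.002 and 7.24 with ethylene and 5.22, 4.602 and 5.396 in control. This rise of 2.07 ± 0.34 was called (adjusted p = 1.92e-05), where 6% of features were called higher. At 25.5 h the levels were 7.72, 7.201 and 7.45 with ethylene and 3.89, 4.17 and 3.82 in control, a rise of 3.499 ± 0.34 or 11.3-fold (adjusted p = 6.17e-11). All ethylene arrays exceeded all control arrays at each time, and 11.8% of features were called higher at 25.5 h. Without the arrays high in lectins the rise at 13.5 h was 2.52 (called).

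In cotyledons the ethylene difference reached the threshold at 25.5 h only among the tested times. The levels there were 5.39, 4.895 and 4.95 with ethylene and 3.44, 4.14 and 3.91 in control, without overlap, a rise of 1.25 ± 0.34 (adjusted p = 0.0203, 2.84% of features called higher). The call was lost without control replicate 1 or without ethylene replicate 1 (adjusted p of 0.0148 to 0.125 over all alternatives). At 13.5 h cotyledons had 4.48, 4.97 and 3.95 with ethylene and 3.88, 3.67 and 4.86 in control, which overlap, with a difference of 0.33 ± 0.34 (adjusted p = 0.84). At 1.5 h they had 4.49, 4.19 and 4.03 with ethylene and 4.14, 4.15 and 3.33 in control, a difference of 0.37 ± 0.34, described only. The shares of features called higher at 1.5 and 13.5 h were 0.531% and 0.948%.

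The organ difference itself was tested at 2 of the times. The ethylene response of AT2G43870 in hypocotyls minus that in cotyledons was 1.74 ± 0.48 at 13.5 h (adjusted p = 0.0337) and 2.25 ± 0.48 at 25.5 h (adjusted p = 0.000639), beside 2.62 ± 0.48 at 1.5 h, which chose the gene. The call at 13.5 h was lost on leaving out any 1 of 6 of the 12 arrays involved, with values of 1.38 to 1.75, and with the compared arrays alone (adjusted p of 0.0186 to 0.157 over all alternatives). The call at 25.5 h held under every alternative run. In controls hypocotyl minus cotyledon was 0.12 ± 0.34 at 1.5 h (adjusted p = 0.81), turning to -0.84 without the arrays high in lectins, and 0.13 ± 0.34 at 25.5 h (adjusted p = 0.822). At 13.5 h it was 0.94 ± 0.34 (adjusted p = 0.033), with overlapping arrays, and 0.46 (not called) without the arrays high in lectins.

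No shade difference of AT2G43870 was called in either organ. Shaded hypocotyls had 3.58, 3.59 and 2.57 at 1.5 h, 4.28, 4.67 and 4.48 at 13.5 h and 4.602, 3.25 and 4.21 at 25.5 h, each set overlapping its controls. The differences were -0.75 ± 0.34, -0.598 ± 0.34 and 0.06 ± 0.34 (adjusted p = 0.154, 0.337 and 0.952). Shares of features called higher in these comparisons were 1.96%, 6.1% and 7.82%, and shares called lower 10.5%, 4.7% and 7.48%. The split at 1.5 h depends on the scaling, as given with AT1G60590. Without control replicate 2, the lowest of the controls at 1.5 h, the first difference was -1.23 (called). With that replicate as the lone control, once the arrays high in lectins were left out, it was 0.21 (not called), with the sign turned. Shaded cotyledons had 4.03, 3.96 and 3.74 at 1.5 h, 3.78, 4.17 and 4.25 at 13.5 h and 2.79, 3.45 and 3.32 at 25.5 h. They differed from control by 0.04 ± 0.34, -0.07 ± 0.34 and -0.64 ± 0.34 (adjusted p = 0.998, 0.956 and 0.288). Of all features 0.206%, 2.05% and 4.91% were called higher there, and 0.32%, 2.5% and 3.9% lower.

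Set directly against each other, shade gave lower levels than ethylene. In hypocotyls shade minus ethylene was -2.67 ± 0.34 at 13.5 h (adjusted p = 1.11e-07) and -3.44 ± 0.34 at 25.5 h (adjusted p = 1.39e-10), beside -3.73 ± 0.34 at 1.5 h, described only. In cotyledons it was -1.89 ± 0.34 at 25.5 h (adjusted p = 8.94e-05) and -0.404 ± 0.34 at 13.5 h (adjusted p = 0.673), with -0.33 ± 0.34 at 1.5 h described only. AT2G43870 had no common drop at night. In control hypocotyls it stood higher at 13.5 h than at 1.5 h, by 1.08 ± 0.34 (adjusted p = 0.0128), and in control cotyledons the difference was 0.27 ± 0.34 (adjusted p = 0.696). The hypocotyl call was lost without control replicate 2 at 1.5 h, without control replicate 3 at 13.5 h and with the compared arrays alone (adjusted p of 0.00313 to 0.212 over all alternatives). On the following day control hypocotyls were lower than at night, with a difference of -1.11 ± 0.34 (adjusted p = 0.0135), which was -0.64 (not called) without the arrays high in lectins. This call was also lost without control replicate 1 or 3 at 13.5 h or control replicate 3 at 25.5 h (adjusted p of 0.00613 to 0.458 over all alternatives). Ethylene-treated hypocotyls differed by 0.32 ± 0.34 between the following day and the night (adjusted p = 0.649).

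**Figure D3:**
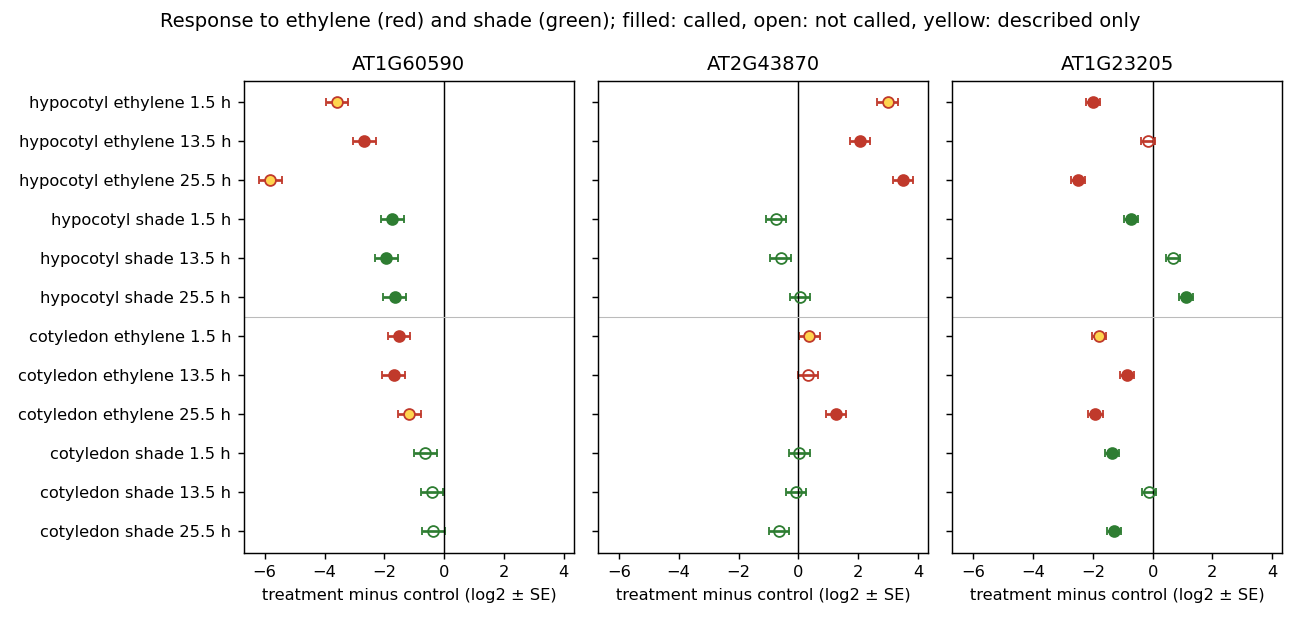
Treatment minus control on the log2 scale with its standard error (horizontal axes) for each gene, organ, treatment and time. Filled red and green points are called, open points are not called, and yellow points are described only because those arrays took part in the choice of the gene. The row of AT2G43870 in hypocotyls is positive for ethylene, 2.07 to 3.499, and AT1G60590 is negative in all 12 comparisons.

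AT1G23205, of the inhibitor family, was lower with ethylene at both light harvests in both organs, and its shade response changed sign between organs at 25.5 h. Its group means spanned 4.68 log2 units. At the bottom stood 8 groups, namely all 6 groups of the dark harvest and ethylene-treated hypocotyls at 1.5 and 25.5 h. Above a gap came 9 groups of the light harvests, and control cotyledons at 25.5 h stood alone at the top with 6.85 ± 0.19. The lowest mean was 2.17 ± 0.198, in ethylene-treated hypocotyls at 25.5 h. Of the 17 pairs of neighbours 15 overlapped.

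In hypocotyls at 1.5 h AT1G23205 had 3.56, 2.92 and 2.89 with ethylene, against 4.96, 5.41 and 4.96 in control, a difference of -1.98 ± 0.24 (adjusted p = 1.16e-07). At 25.5 h it had 2.39, 2.11 and 2.01 with ethylene and 4.54, 4.27 and 5.15 in control, a difference of -2.49 ± 0.24 or 5.6-fold (adjusted p = 2.74e-11). The groups are well apart at both times. At 13.5 h the levels were 2.13, 2.49 and 2.41 with ethylene and 2.44, 2.704 and 2.33 in control, which overlap, and the difference of -0.15 ± 0.24 was not called (adjusted p = 0.818). The 6 arrays then lay between the 19.1th and 34th percentiles of all features with a gene. In ethylene-treated hypocotyls the gene did not differ between the following day and the night by a called amount, at -0.18 ± 0.24 (adjusted p = 0.735), whereas it rose by 2.16 ± 0.24 in control hypocotyls (adjusted p = 1.08e-09). The change of the ethylene response from 1.5 h to 25.5 h was -0.502 ± 0.33 (adjusted p = 0.41). Ethylene-treated hypocotyls at 25.5 h lay between the 19.8th and 26.9th percentiles, about as low as at night. RMA compresses such low levels, so neither uncalled value measures a lack of change.

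In cotyledons ethylene-treated arrays had 5.09, 4.75 and 4.98 at 25.5 h, against 6.84, 7.04 and 6.66 in control, a difference of -1.91 ± 0.24 (adjusted p = 2.11e-07). At 13.5 h they had 2.31, 2.34 and 2.11 with ethylene and 3.16, 3.34 and 2.85 in control, a difference of -0.87 ± 0.24 (adjusted p = 0.0441). The groups do not overlap, but this call was lost after centring, quantile normalization, a fit of the compared arrays alone, over all features of the array, and on leaving out 5 of the 6 arrays (adjusted p of 0.0277 to 0.238 over all alternatives). At 1.5 h, the comparison set aside for this gene, the levels were 4.84, 3.74 and 3.84 with ethylene and 6.11, 5.803 and 5.93 in control, a difference of -1.81 ± 0.24. Replicate 1 of the ethylene arrays stood above the other 2. No organ difference in the ethylene response was called for AT1G23205: it was 0.72 ± 0.33 at 13.5 h (adjusted p = 0.345) and -0.58 ± 0.33 at 25.5 h (adjusted p = 0.304). Low levels limit both values, since ethylene-treated cotyledons at 13.5 h lay between the 18.3th and 23.5th percentiles and ethylene-treated hypocotyls were low at both times.

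Under shade the inhibitor-family gene AT1G23205 went in opposite directions in the 2 organs after a day. Shaded hypocotyls had 5.48, 6.01 and 5.798 at 25.5 h, all above the controls, a rise of 1.11 ± 0.24 (adjusted p = 0.00052). Shaded cotyledons had 5.596, 5.76 and 5.34, all below their controls, a difference of -1.28 ± 0.24 (adjusted p = 0.000197). The organ difference was 2.39 ± 0.33 (adjusted p = 3.8e-06), and it ranged from 2.2005 to 2.64 on leaving out single arrays. At 1.5 h both organs were lower with shade. Hypocotyls had 4.42, 4.58 and 4.15, a difference of -0.73 ± 0.24 (adjusted p = 0.0349), and cotyledons 4.37, 4.74 and 4.62, a difference of -1.37 ± 0.24 (adjusted p = 0.000944). No shaded array reached its controls in either organ. The cotyledon controls at 1.5 h are those of the comparison set aside for this gene.

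The small hypocotyl fall of AT1G23205 at 1.5 h depends on the processing (adjusted p of 0.026 to 0.226 over all alternatives). It was -0.48 (not called) after centring each array on its median, -0.496 (not called) after quantile normalization within the tissue and -1.03 (not called) without the arrays high in lectins. The medians over all features in that comparison are given with AT1G60590. The cotyledon fall at 1.5 h was -1.37 (called) after centring. At 13.5 h shaded hypocotyls had 3.34, 3.33 and 2.85, above all controls, with a difference of 0.68 ± 0.24 that missed the threshold (adjusted p = 0.0556). In this comparison the deviations of same-numbered arrays correlated only weakly, with r of 0.105, 0.199 and 0.109 in the 3 pairs. The difference was called with the replicate block (adjusted p = 0.0411), as it was with the dimmest features left out (adjusted p of 0.0291 to 0.471 over all alternatives). Shaded cotyledons had 3.35, 3.21 and 2.42 at 13.5 h, overlapping control, with a difference of -0.12 ± 0.24 (adjusted p = 0.875). The array at 2.42 is the replicate high in lectins, as for AT1G60590, and the difference was 0.16 (not called) without such arrays. The response to shade in hypocotyls at 25.5 h minus that at 1.5 h, a comparison added after the data were seen, was 1.83 ± 0.33 (adjusted p = 0.000229), against 0.09 ± 0.33 in cotyledons (adjusted p = 0.983). Of all features 8.99% and 0.131% were called in these comparisons, and 14% and 0.84% in those for ethylene.

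Compared with ethylene, shade left AT1G23205 higher in hypocotyls at each time, by 1.26 ± 0.24, 0.83 ± 0.24 and 3.59 ± 0.24 at 1.5, 13.5 and 25.5 h (adjusted p = 0.000141, 0.011 and 1.32e-15). The value at 13.5 h was 0.72 (not called) without the arrays high in lectins, and the call was also lost without ethylene replicate 1, shade replicate 1 or shade replicate 2 (adjusted p of 0.00583 to 0.0664 over all alternatives). In cotyledons shade minus ethylene was 0.74 ± 0.24 at 13.5 h (adjusted p = 0.0591, 0.00613 to 0.298 over all alternatives) and 0.63 ± 0.24 at 25.5 h (adjusted p = 0.0761), with 0.44 ± 0.24 at 1.5 h described only. Control hypocotyls had less than control cotyledons at all 3 times, with differences of -0.84 ± 0.24, -0.63 ± 0.24 and -2.19 ± 0.24 (adjusted p = 0.00341, 0.0389 and 5.5e-10). Without the arrays high in lectins the first 2 were -0.53 (not called) and -0.41 (not called).

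Night levels of AT1G23205 were low in both organs. In control hypocotyls the difference at 13.5 h against 1.5 h was -2.62 ± 0.24 (adjusted p = 8e-12), and in control cotyledons -2.83 ± 0.24 (adjusted p = 1.28e-12). On the following day it was higher than at night by 2.59 ± 0.24 in shaded hypocotyls (adjusted p = 1.26e-11). In cotyledons the rise was 2.69 ± 0.24 with ethylene, 2.57 ± 0.24 with shade and 3.73 ± 0.24 in control (adjusted p = 3.29e-12, 1.35e-11 and 1.74e-16). At 25.5 h against 1.5 h control cotyledons were higher by 0.901 ± 0.24 (adjusted p = 0.00482), and control hypocotyls differed by -0.46 ± 0.24 (adjusted p = 0.141). Both differences of control cotyledons from 1.5 h rest on control arrays of the comparison set aside for this gene.

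Side by side over the 18 group means, AT1G60590 and AT1G23205 ran together, with Pearson's r of 0.846 and Spearman's rho of 0.816. AT2G43870 ran against AT1G60590 (r of -0.703, rho of -0.73) and against AT1G23205 (r of -0.622, rho of -0.723). These describe group means that share arrays, treatments and the hour of the day, and no p is given. At 25.5 h in hypocotyls all 3 genes differ between ethylene and control, with the pectin lyase-like pair at -5.82 and 3.499 and the inhibitor-family gene at -2.49. In that comparison 22.9% of all features were called. Under shade at 25.5 h in hypocotyls the values were -1.66 for AT1G60590, 0.06 for AT2G43870 and 1.11 for AT1G23205, with 15.3% of features called. Of the 3 genes AT1G60590 and AT1G23205 were called there, in opposite directions.

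Genes with the most similar pattern over the 18 group means were sought among 4218 single-gene features whose group means had an SD of at least 0.5. For AT1G60590 the 5 highest Pearson correlations were those of AT3G47295 (0.963), AT4G27700 (0.955), AT3G28270 (0.929), AT1G66130 (0.919) and AT2G31560 (0.917). The mean of AT3G28270 in hypocotyls at 25.5 h was 2.39 with ethylene and 9.3002 in control. For AT2G43870 they were AT4G34380 (0.914), AT5G50335 (0.914), AT4G35720 (0.91), UPB1 (0.91) and AT5G47060 (0.905). UPB1 encodes a transcription factor known from the control of root growth through reactive oxygen species. The rank correlations here ranged from 0.426 to 0.8, below Pearson's r for each, and the 3 groups of ethylene-treated hypocotyls stand apart from the rest. AT5G50335 averaged 6.92 with ethylene and 2.74 in control hypocotyls at 25.5 h. For AT1G23205 the genes were AT5G44050 (0.907), AT5G01015 (0.907), AT3G21670 (0.874), AT2G27420 (0.865) and AT1G10640 (0.863). AT1G10640 averaged 4.42 with ethylene and 8.59 in control hypocotyls at 25.5 h. These are likenesses over 18 means, chosen from many genes, and carry no test.

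The other pectin genes were taken from lists by enzyme class, which name 69 loci, of which 25 besides the 3 genes have a feature. They are 3 polygalacturonases, 8 pectate lyases, 8 pectin methylesterases, 5 methylesterase inhibitors and 1 rhamnogalacturonan lyase, while the synthesis enzymes (5 loci) and acetylesterases (6 loci) have 0. The lists were drawn up by hand and from keywords, and were not checked to be complete. Counts below are therefore of listed genes, not of whole classes, and unlisted genes of a class can behave otherwise. Under ethylene in hypocotyls 2 of the 25 were called higher and 1 lower at 1.5 h, 9 and 3 at 13.5 h, and 10 and 1 at 25.5 h. Among all features 3.03%, 12% and 22.9% were called at these times. Called higher were 1.38%, 6% and 11.8%, and called lower 1.65%, 6.04% and 11.1%. The median difference of the 25 was 0.01, 0.09 and 0.32, beside 0.01, 0.004 and -0.02 over all features. With the compared arrays alone 4 genes were called higher at 13.5 h. The counts at 1.5 h were the least stable and ran from 0 to 2 under the alternatives.

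The largest rise among these genes under ethylene was that of a methylesterase at 25.5 h. AT3G43270 rose in hypocotyls by 1.09 ± 0.18 (adjusted p = 0.00011) at 1.5 h, 1.98 ± 0.18 (adjusted p = 1.04e-10) at 13.5 h and 2.94 ± 0.18 (adjusted p = 5.37e-16) at 25.5 h. Another methylesterase, AT3G49220, rose by 1.62 ± 0.14 (adjusted p = 4.45e-12) at 25.5 h. The methylesterase inhibitor AT4G25260 rose by 2.74 ± 0.199 (adjusted p = 2.2e-14) at 25.5 h, and the inhibitor AT4G25250 fell by 1.13 ± 0.32 (adjusted p = 0.042) at 1.5 h. AT4G25260 was the only one of the 5 other listed inhibitors called at 25.5 h, a share close to the 22.9% of all features called there. Of the 8 listed pectate lyases, which cut unmethylated pectin, 5 were called higher and 1 lower at 25.5 h. Of all features 11.8% were called higher and 11.1% lower in that comparison. Among them AT3G07010 rose by 1.94 ± 0.24 (adjusted p = 1.4e-08), while AT4G24780 fell by 1.71 ± 0.19 (adjusted p = 2.44e-09). At 13.5 h AT1G67750 rose by 2.13 ± 0.32 (adjusted p = 3.24e-06), and AT5G48900 rose at all 3 times, by 0.55 ± 0.14 (adjusted p = 0.02) at 1.5 h. The polygalacturonase AT1G48100 fell by 1.48 ± 0.29 (adjusted p = 0.000208) and the inhibitor AT5G62360 fell by 1.29 ± 0.23 (adjusted p = 8.08e-05) at 13.5 h.

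Shade gave 1 gene called higher and 1 lower in hypocotyls at 1.5 h, 12 and 1 at 13.5 h, and 9 and 3 at 25.5 h. Over all features 12.4%, 10.8% and 15.3% were called, with 1.96%, 6.1% and 7.82% higher and 10.5%, 4.7% and 7.48% lower. The medians of the 25 were 0.07, 0.32 and 0.06, beside -0.12, -0.02 and 0.02. At 1.5 h the count higher was 2 after quantile normalization within the tissue and 3 after centring. The median over all features was then 0.01 and 0.13, and that of the 25 was not recomputed. The count lower at 1.5 h was 2 with the replicate block and 0 with the dimmest features left out. The count of 12 at 13.5 h fell to 7 without the arrays high in lectins and to 2 with the compared arrays alone. In the main comparison the methylesterase PME61 (AT3G59010) rose by 2.06 ± 0.22 (adjusted p = 9.01e-09) and the pectate lyase AT3G07010 by 1.52 ± 0.24 (adjusted p = 1.15e-05) at 13.5 h. The inhibitor AT5G20740 rose by 1.43 ± 0.27 (adjusted p = 0.00019). At 25.5 h AT4G25260 rose by 2.01 ± 0.199 (adjusted p = 2.48e-10), AT3G07010 by 1.92 ± 0.24 (adjusted p = 4.31e-08) and AT3G49220 by 1.34 ± 0.14 (adjusted p = 1.38e-09). The lyases AT4G24780, AT1G67750 and AT3G27400 fell, with differences of -1.84 ± 0.19 (adjusted p = 1.07e-09), -1.25 ± 0.32 (adjusted p = 0.00379) and -0.88 ± 0.28 (adjusted p = 0.0234). At 1.5 h AT4G25250 fell by 2.13 ± 0.32 (adjusted p = 1.73e-05) and AT4G25260 rose by 0.77 ± 0.199 (adjusted p = 0.00791). AT1G67750 and AT3G27400 thus fell with shade and rose with ethylene at 25.5 h, the ethylene differences being 0.896 ± 0.32 (adjusted p = 0.0344) and 1.01 ± 0.28 (adjusted p = 0.0052), both sets sharing the control arrays.

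Cotyledons gave fewer calls than hypocotyls at each time, among these genes and over all features alike. With ethylene 0 of the 25 were called higher and 1 lower at 1.5 h, 0 and 2 at 13.5 h, and 3 and 1 at 25.5 h. At an unadjusted p below 0.05 limma gave 1 higher and 5 lower at 1.5 h, and 4 and 6 at 13.5 h. The share of all features at that threshold was not computed, so these unadjusted counts cannot be weighed. At the adjusted threshold 1.01%, 1.61% and 5.2% of all features were called. Called higher were 0.531%, 0.948% and 2.84%, and called lower 0.474%, 0.663% and 2.36%. At 25.5 h the pectate lyases AT5G48900 and AT1G67750 rose by 1.33 ± 0.14 (adjusted p = 1.22e-08) and 1.18 ± 0.32 (adjusted p = 0.0182) and the methylesterase AT3G43270 by 0.65 ± 0.18 (adjusted p = 0.0281), while the lyase AT1G04680 fell by 0.48 ± 0.13 (adjusted p = 0.0139). AT4G24780 fell by 1.41 ± 0.19 (adjusted p = 1.16e-05) at 13.5 h, and AT5G63180 fell by 0.92 ± 0.23 (adjusted p = 0.023). AT3G07010 fell by 1.005 ± 0.24 (adjusted p = 0.0182) at 1.5 h. With shade 0 were called higher and 0 lower at 1.5 h, 2 and 0 at 13.5 h and 4 and 0 at 25.5 h. Over all features 0.526%, 4.54% and 8.81% were called. Called higher were 0.206%, 2.05% and 4.91%, and called lower 0.32%, 2.5% and 3.9%. At 1.5 h limma gave 0 higher and 1 lower at an unadjusted p below 0.05, 7 and 0 at 13.5 h, and 7 and 1 at 25.5 h. For these unadjusted counts, too, no share of all features was computed. At 25.5 h AT3G07010 rose by 1.37 ± 0.24 (adjusted p = 9.1e-05), AT5G48900 by 0.796 ± 0.14 (adjusted p = 0.000164) and the rhamnogalacturonan lyase AT1G09890 by 0.74 ± 0.23 (adjusted p = 0.0377). At 13.5 h AT3G07010 rose by 1.18 ± 0.24 (adjusted p = 0.00159) and AT1G04680 by 0.502 ± 0.13 (adjusted p = 0.0124).

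**Figure D4:**
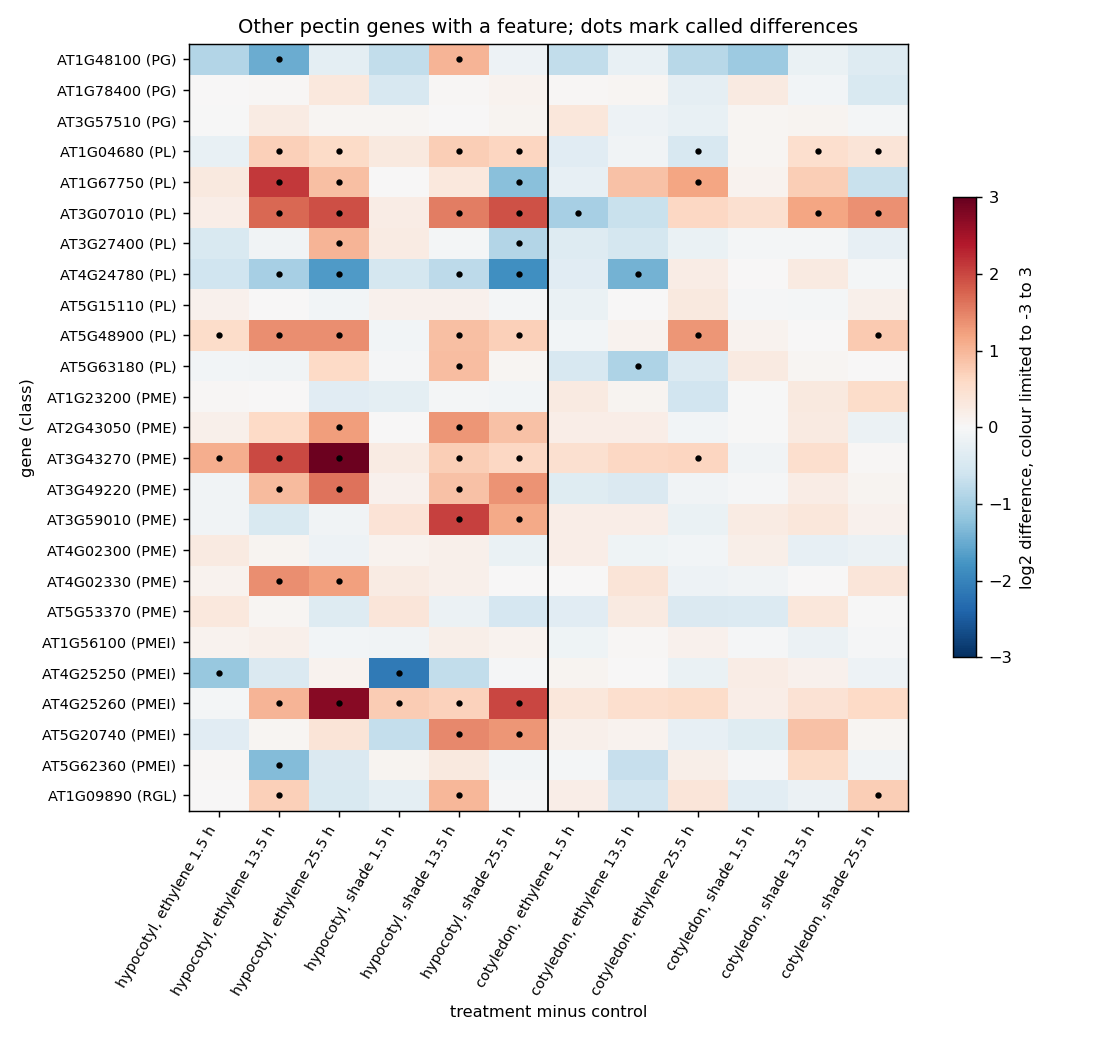
Treatment minus control on the log2 scale (colour, limited to -3 and 3) for the 25 other listed pectin genes in rows, grouped by class, and the 12 comparisons in columns. PG stands for polygalacturonase, PL for pectate lyase, PME for pectin methylesterase, PMEI for its inhibitor family and RGL for rhamnogalacturonan lyase, and a dot marks a called difference. Dots gather in hypocotyls at 13.5 and 25.5 h, and AT3G43270 reaches 2.94 under ethylene at 25.5 h.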

How the data were processed

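Total RNA of 54 seedling samples was hybridised to Affymetrix Gene 1.1 ST arrays, 1 array per sample. Each deposited value is a log2 level that the authors computed by RMA. The tools listed are Expression Console 1.4 and, for an unstated step, Transcriptome Analysis Console 3.0 (both per the submitters' processing notes). RMA subtracts background, equalizes the arrays and summarizes probes, so low levels are compressed. Neither the genome build nor whether the arrays were normalized in 1 batch is stated in the sources used here. The table holds 38408 features, of which the platform annotation assigns no gene to 20904, several to 758 and exactly 1 to 16746. Symbols were updated through gene identifiers to the TAIR10.1 RefSeq table, which matched 16601.

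A single fit (lmFit and eBayes, limma 3.58.1, R 4.3.3) held a mean for each of the 18 groups over the 17504 features with a gene, and p-values were adjusted within each of 41 comparisons. Of these, 31 were set out first and 10 were added after the values were seen. The script was tested on simulated data. Whether replicate numbers pair the arrays was checked by correlating deviations of same-numbered arrays from their group means, and all 3 pairs passed 0.1 in 2 of 31 comparisons of 2 groups, among them shade against control in hypocotyls at 13.5 h. The members and lists were chosen with earlier results of these data known. A comparison with a gene among its 3 largest called rises or falls was not tested for that gene. The genes named are the 3 members, the 5 genes most like each, and the 3 largest called rises and falls of the pectin lists per comparison, with further listed genes left as counts. List classes rest on family knowledge plus keywords in RefSeq symbols and synonyms, so a class may be incomplete. Keyword hits that held the words "inhibiting" or "response to" were left out. Marker lists were root hair (1 of 3 measured), lectins (3 of 3), green mesophyll (0 of 6), meristem (1 of 4) and stomatal lineage (4 of 4). Alternatives were a replicate block, 2 other scalings, 2 other feature sets, the compared arrays alone, each array left out, and the arrays high in lectins left out, meaning a lectin mean over 1 above the median of their tissue. Sequences were not analysed here.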

Additional observations from a re-analysis of the deposited data

Results flagged for a closer look

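These results stand out because the effect of a treatment differed between organs or between times when the difference itself was tested with limma. For AT2G43870 the ethylene response was larger in hypocotyls than in cotyledons by 1.74 ± 0.48 at 13.5 h (adjusted p = 0.0337) and by 2.25 ± 0.48 at 25.5 h (adjusted p = 0.000639). The first was lost under several alternatives, and leaving out single arrays gave 1.38 to 1.99 and 2.09 to 2.44. AT2G43870 was chosen by the same organ difference at 1.5 h, which ran the same way. Both values are therefore no independent support for it. For AT1G23205 the shade response in hypocotyls exceeded that in cotyledons at 25.5 h by 2.39 ± 0.33 (adjusted p = 3.8e-06), since the level rose in shaded hypocotyls and fell in shaded cotyledons. In hypocotyls the shade response of AT1G23205 at 25.5 h exceeded that at 1.5 h by 1.83 ± 0.33 (adjusted p = 0.000229). What lies behind these differences was not tested.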

How the results depend on the processing

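Over the 123 member differences, 1779 alternative values were computed, of which 1628 kept direction and side of the threshold (or, where described only, moved by less than the SD), 72 lost the call, 20 gained it, 10 described values moved beyond the SD and 49 tested values changed sign, 0 of them from or to a call. Of the 123 differences 73 held in every alternative run. Where a setting changed a call or a sign, the cause was not tested unless the setting itself removes arrays or features. After quantile normalization within tissue, AT1G23205 was no longer called for shade minus control in hypocotyls at 1.5 h (-0.496), ethylene minus control in cotyledons at 13.5 h (-0.84) and control hypocotyl minus cotyledon at 13.5 h (-0.59). AT2G43870 was called for cotyledons with shade at 25.5 h minus 13.5 h (-0.88). AT2G43870 changed sign, uncalled, for control hypocotyl minus cotyledon at 1.5 h (-0.0734) and hypocotyl controls at 25.5 h minus 1.5 h (0.21). AT1G60590 changed sign, uncalled, for control hypocotyl minus cotyledon at 25.5 h (0.064) and the shade response in hypocotyls at 25.5 h minus 1.5 h (-0.15). After centring on the array median, AT1G23205 was no longer called for shade minus control in hypocotyls at 1.5 h (-0.48) and ethylene minus control in cotyledons at 13.5 h (-0.85). AT1G60590 was no longer called for shade minus ethylene in cotyledons at 13.5 h (1.26). AT2G43870 was no longer called for control hypocotyl minus cotyledon at 13.5 h (0.81). AT2G43870 changed sign, uncalled, for control hypocotyl minus cotyledon at 1.5 h (-0.23) and hypocotyl controls at 25.5 h minus 1.5 h (0.22). AT1G60590 changed sign, uncalled, for the shade response in hypocotyls at 25.5 h minus 1.5 h (-0.12). With the dimmest features left out, AT1G23205 was called for shade minus control in hypocotyls at 13.5 h (0.68) and shade minus ethylene in cotyledons at 13.5 h (0.74). AT2G43870 was called for cotyledons with shade at 25.5 h minus 13.5 h (-0.88). With all features of the array tested, AT1G23205 was no longer called for ethylene minus control in cotyledons at 13.5 h (-0.87). AT1G60590 was no longer called for shade minus ethylene in cotyledons at 13.5 h (1.28). Without the arrays high in lectins, where a lone control array is assumed to vary like other groups, AT1G23205 was no longer called for shade minus control in hypocotyls at 1.5 h (-1.03), shade minus ethylene in hypocotyls at 13.5 h (0.72), control hypocotyl minus cotyledon at 1.5 h (-0.53) and control hypocotyl minus cotyledon at 13.5 h (-0.41). AT1G60590 was no longer called for control hypocotyl minus cotyledon at 13.5 h (-0.52) and hypocotyl controls at 13.5 h minus 1.5 h (-1.16). AT2G43870 was no longer called for control hypocotyl minus cotyledon at 13.5 h (0.46) and hypocotyl controls at 25.5 h minus 13.5 h (-0.64). AT1G23205 was called for shade minus ethylene in cotyledons at 13.5 h (1.03). AT1G60590 was called for the ethylene response in hypocotyl minus cotyledon at 13.5 h (-1.63), the shade response in hypocotyl minus cotyledon at 13.5 h (-3.17) and the shade response in hypocotyl minus cotyledon at 25.5 h (-1.27). AT2G43870 changed sign, uncalled, for shade minus control in hypocotyls at 1.5 h (0.21), control hypocotyl minus cotyledon at 1.5 h (-0.84), the shade response in hypocotyl minus cotyledon at 1.5 h (0.18), the shade response in hypocotyl minus cotyledon at 13.5 h (0.0394), hypocotyl controls at 25.5 h minus 1.5 h (0.93) and the shade response in hypocotyls at 25.5 h minus 1.5 h (-0.15). AT1G60590 changed sign, uncalled, for shade minus control in cotyledons at 13.5 h (0.43) and the shade response in hypocotyls at 25.5 h minus 1.5 h (-0.0639). AT1G23205 changed sign, uncalled, for shade minus control in cotyledons at 13.5 h (0.16) and the shade response in cotyledons at 25.5 h minus 1.5 h (-0.0081). AT2G43870 moved for ethylene minus control in hypocotyls at 1.5 h (4.198), the ethylene response in hypocotyl minus cotyledon at 1.5 h (3.83) and the ethylene response in hypocotyls at 25.5 h minus 1.5 h (-0.6995). With only the compared arrays in the fit, AT1G23205 was no longer called for shade minus control in hypocotyls at 1.5 h (-0.73) and ethylene minus control in cotyledons at 13.5 h (-0.87). AT1G60590 was no longer called for shade minus control in hypocotyls at 13.5 h (-1.93) and shade minus ethylene in cotyledons at 13.5 h (1.28). AT2G43870 was no longer called for control hypocotyl minus cotyledon at 13.5 h (0.94), the ethylene response in hypocotyl minus cotyledon at 13.5 h (1.74) and hypocotyl controls at 13.5 h minus 1.5 h (1.08). AT1G60590 was called for shade minus ethylene in cotyledons at 1.5 h (0.88), the shade response in hypocotyl minus cotyledon at 1.5 h (-1.11) and the shade response in hypocotyl minus cotyledon at 25.5 h (-1.29). AT2G43870 was called for cotyledons with shade at 25.5 h minus 13.5 h (-0.88). Replicate numbers are shared by the groups, but the labels tie no number to an experiment. The pairing check held in 2 of 31 comparisons of 2 groups, namely shade minus control in hypocotyls at 13.5 h and hypocotyl controls at 13.5 h minus 1.5 h, and over all 93 pairs the correlations ran from -0.195 to 0.462. With the replicate block the called features grew by 1.04 to 1.36 times, and 2 of 123 member differences changed their call. With the block, AT1G23205 was called for shade minus control in hypocotyls at 13.5 h (0.68) and shade minus ethylene in cotyledons at 13.5 h (0.74). Leaving out single arrays gave the following ranges for differences that changed their call or sign or moved. Ethylene minus control in hypocotyls at 1.5 h ran from 2.505 to 3.25 for AT2G43870. Shade minus control in hypocotyls at 1.5 h ran from -0.82 to -0.57 for AT1G23205 and -1.23 to -0.41 for AT2G43870. Shade minus control in hypocotyls at 13.5 h ran from 0.597 to 0.84 for AT1G23205. Shade minus control in hypocotyls at 25.5 h ran from -0.23 to 0.44 for AT2G43870. Ethylene minus control in cotyledons at 1.5 h ran from -1.62 to -1.44 for AT1G60590 and -2.16 to -1.61 for AT1G23205. Ethylene minus control in cotyledons at 13.5 h ran from -0.9995 to -0.75 for AT1G23205 and -1.86 to -1.495 for AT1G60590. Ethylene minus control in cotyledons at 25.5 h ran from 1.06 to 1.41 for AT2G43870. Shade minus control in cotyledons at 1.5 h ran from -0.24 to 0.17 for AT2G43870. Shade minus control in cotyledons at 13.5 h ran from -0.31 to 0.28 for AT2G43870, -0.83 to 0.43 for AT1G60590 and -0.302 to 0.16 for AT1G23205. Shade minus ethylene in hypocotyls at 13.5 h ran from 0.72 to 0.99 for AT1G23205. Shade minus ethylene in cotyledons at 1.5 h ran from 0.24 to 0.79 for AT1G23205. Shade minus ethylene in cotyledons at 13.5 h ran from 0.86 to 2.12 for AT1G60590 and 0.57 to 1.03 for AT1G23205. Control hypocotyl minus cotyledon at 1.5 h ran from -0.15 to 0.601 for AT2G43870. Control hypocotyl minus cotyledon at 13.5 h ran from 0.703 to 1.29 for AT2G43870, -0.76 to -0.51 for AT1G23205 and -1.72 to -0.93 for AT1G60590. Control hypocotyl minus cotyledon at 25.5 h ran from -0.15 to 0.086 for AT1G60590 and -0.065 to 0.29 for AT2G43870. The ethylene response in hypocotyl minus cotyledon at 1.5 h ran from 2.14 to 2.89 for AT2G43870 and -0.39 to 0.17 for AT1G23205. The ethylene response in hypocotyl minus cotyledon at 13.5 h ran from 1.38 to 1.99 for AT2G43870. The shade response in hypocotyl minus cotyledon at 13.5 h ran from -2.37 to -1.1003 for AT1G60590. Hypocotyl controls at 13.5 h minus 1.5 h ran from 0.603 to 1.35 for AT2G43870. Hypocotyl controls at 25.5 h minus 1.5 h ran from -0.51 to 0.24 for AT2G43870 and -0.704 to -0.26 for AT1G23205. Cotyledon controls at 13.5 h minus 1.5 h ran from -0.0909 to 0.501 for AT2G43870. Cotyledon controls at 25.5 h minus 1.5 h ran from -0.31 to 0.15 for AT2G43870. The ethylene response in hypocotyls at 25.5 h minus 1.5 h ran from 0.24 to 0.99 for AT2G43870. The shade response in hypocotyls at 25.5 h minus 1.5 h ran from -0.0454 to 0.26 for AT1G60590. The ethylene response in cotyledons at 25.5 h minus 1.5 h ran from -0.31 to 0.25 for AT1G23205. The shade response in cotyledons at 25.5 h minus 1.5 h ran from -0.0164 to 0.1996 for AT1G23205. Hypocotyl controls at 25.5 h minus 13.5 h ran from -1.35 to -0.95 for AT2G43870. Cotyledon controls at 25.5 h minus 13.5 h ran from -0.54 to 0.0503 for AT2G43870. Among the counts of the 25 other pectin genes, those higher under shade in hypocotyls at 13.5 h were 7 without the arrays high in lectins and 2 with the compared arrays alone, and those higher under ethylene at 13.5 h were 4 with the compared arrays alone. Counts of calls over all features in the 12 treatment comparisons, by direction, moved by over 1.5 times in 23 of 24 when all features of the array were tested (ratios of 1.45 to 2.36) and in 22 of 24 with the compared arrays alone (0.0531 to 0.885). Without the arrays high in lectins, hypocotyls at 1.5 h had 100 features higher and 99 lower with ethylene in place of 242 and 288, and 56 higher and 323 lower with shade in place of 343 and 1836. Over all settings other than leaving out single arrays, 53 of 168 counts over all features and 29 of 168 counts of pectin genes moved by over 1.5 times. A second feature for a gene could not be tried, since each gene has 1. The number of arrays limits the precision, and signal over background is not recorded in the values.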
